A study of Mus musculus with 6 samples.

Results

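The SLC1 family of membrane carriers holds glutamate transporters and neutral amino acid exchangers. Rows of the deposited gene table were chosen by symbol, and all 5 listed members (Slc1a1, Slc1a2, Slc1a3, Slc1a4 and Slc1a5) were found among its 24391 genes. The glutamate transporters couple uptake to the sodium gradient and clear glutamate from the space around cells. Slc1a1 (EAAC1) is the form typical of neurons and also carries cysteine, while Slc1a2 (GLT-1) and Slc1a3 (GLAST) are typical of astrocytes. Slc1a4 (ASCT1) exchanges serine, alanine, cysteine and threonine, and Slc1a5 (ASCT2) exchanges glutamine with other neutral amino acids. Both exchangers are known to accept D-serine, the mirror image of L-serine that binds NMDA receptors beside glutamate.

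Poly(A) RNA was sequenced from Neuro2a cells, a mouse neuroblastoma line. The control group comprised 3 libraries from cells given vehicle, and the D-serine group 3 libraries from cells given 5 mM D-serine. All cells spent 18 h in D-MEM(-SG), written so in the labels, with 10% FBS. The libraries held between 32518483 and 40024265 counts. The labels do not say that the libraries came from separate cultures, so p-values measure the spread between these libraries only. Of the sympathoadrenal and neuronal markers, Hand2 was at 242 CPM in control and Stmn2 at 154 CPM. CPM scales each count to the depth of its library, here after adjustment by trimmed means (TMM). Of the 8 astrocyte markers, Aqp4 and Gja1 had no count in any library, Gfap, Aldh1l1, S100b and Slc4a4 averaged below 0.4 CPM in both groups, and Aldoc and Fgfr3 were at 3.89 and 37.5 CPM in control. Within the D-serine group, replicate 1 stood apart, with a chi-square per degree of freedom of 13.9 and 17.7 against its fellows, where every other pair of a group lay between 3.88 and 6.54. Its log2 levels also fell with exonic length, with a slope of -0.0717 against -0.0040 to 0.0356 in the other libraries. Results for the members are therefore also given without it.

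In the deposited table, Slc1a4 spans 20202183 to 20232716 on the minus strand of chromosome 11 with 8 exons and 3926 exonic bases. Slc1a5 spans 17366695 to 17383623 on the plus strand of chromosome 7 with 9 exons and 2758 exonic bases. No exon of the 5 members overlapped an exon of another gene of the table. The table names no build, and none of these positions was that of RefSeq in GRCm38.p6.

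Slc1a4 and many amino acid response genes are known targets of ATF4, the transcription factor of the amino acid shortage response, which binds with C/EBP partners to sites holding the letters TGATGNAA. The RefSeq promoter of Slc1a4 is shown because it holds that motif across the start of transcription. The stretch is chr11:20332704-20332963 (GRCm38.p6, minus strand), printed 5′ to 3′ from 250 bases before the start to 10 bases after it, with the motif, which reads on the opposite strand, in capitals.
Slc1a4: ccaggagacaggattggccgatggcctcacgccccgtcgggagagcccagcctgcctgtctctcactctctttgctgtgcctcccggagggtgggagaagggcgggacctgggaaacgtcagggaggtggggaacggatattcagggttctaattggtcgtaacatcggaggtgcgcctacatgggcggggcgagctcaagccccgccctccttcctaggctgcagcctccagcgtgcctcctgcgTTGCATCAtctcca
The match covers positions -4 to 4, counted from 1 at the start with no position 0. RefSeq promoters were matched for 4 of the 5 members, all but Slc1a5. In windows of 300 bases (250 before the start and 50 after), searched on both strands, Slc1a4 was the only 1 of these 4 with a match. Over all 27025 symbols with a promoter, 4.51% held one.

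Of 35 genes of an ATF4 and amino acid response list with a promoter, 15 held the motif. The sites of those that were lower with D-serine in the test described below are set beside that of Slc1a4, each on the strand where the motif, in capitals, reads TGATGNAA.
Slc1a4: gctggagaTGATGCAAcgcaggag
Slc7a11, site at -66: catgtggcTGATGCAAacctggag
Slc7a11, site at -47: ctgcatgaTGATGCAAattctcca
Iars: tctggaggTGATGCAAtactgaca
Yars: agctcagcTGATGCAAcccgacgg
Tars: taaccagcTGATGCAAcgggactc
In GRCm38.p6 these lie at chr11:20332702-20332725, chr3:50443664-50443687, chr3:50443645-50443668, chr13:49682129-49682152, chr4:129189898-129189921 and chr15:11399658-11399681. The gene is on the minus strand for Slc1a4, Slc7a11 and Tars, and on the plus strand for Iars and Yars. Slc7a11 encodes the cystine-glutamate exchanger xCT, and Iars, Yars and Tars encode the isoleucyl-, tyrosyl- and threonyl-tRNA synthetases. Of the 15 list genes with the motif 4 were lower past the threshold, and of the other 20 with a promoter 9 were. A match is a description of letters, not evidence of binding.

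The SLC1 message of these cells was almost wholly that of the neutral amino acid exchangers. Per length, in FPKM (CPM divided by the exonic length in kilobases), Slc1a5 stood at 150.0 ± 4.61 in control (SD, n = 3) and ranked 446 among the 24391 genes by mean level. Slc1a4 stood at 67.7 ± 0.885 FPKM in control and ranked 1322. Together they made up at least 99.9% of the summed FPKM of the 5 members in every library. Slc1a1 was at 0.0617 ± 0.020 FPKM in control, and Slc1a2 and Slc1a3 were at the limit of detection.

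With D-serine, Slc1a4 fell by 18.1% and Slc1a5 fell by 9.84%, while no glutamate transporter passed the test. Across all genes, 13366 were expressed highly enough to be tested with the edgeR quasi-likelihood test. At a Benjamini-Hochberg adjusted p under 0.05, 4.9% of them were lower with D-serine and 4.84% higher, or 9.74% in either direction. Of the 3 members that could be tested, 2 were called, both lower, and Slc1a2 and Slc1a3 were too low to test. The balance of calls over all genes depended on the scaling, with 647 higher and 655 lower as reported, 914 and 412 under upper quartile scaling and 944 and 412 with library totals.

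Slc1a4 had 268, 262 and 268 CPM in control replicates 1 to 3. It had 214, 221 and 217 CPM in D-serine replicates 1 to 3. Every D-serine library lay below every control library, as was so, in either direction, for 32.9% of all tested genes. The mean fell from 266 ± 3.47 to 218 ± 3.69 CPM (SD, n = 3 each), a log2 fold change of -0.29 (SE 0.040, edgeR adjusted p = 0.00336). The counts behind these values ran from 8143 to 9969 per library. The coefficient of variation between libraries, 1.31% in control and 1.70% with D-serine, was close to the 1.46% and 1.54% that counting alone gives when read pairs are the independent unit. Without D-serine replicate 1 the log2 fold change was -0.28 (edgeR adjusted p = 6.95e-05). Slc1a4 stayed past the threshold under each of the 16 alternatives, at values from -0.30 to -0.26 and a highest adjusted p of 0.0360.

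Slc1a5 had 404, 409 and 428 CPM in control replicates 1 to 3. It had 375, 368 and 376 CPM in D-serine replicates 1 to 3. The groups did not overlap, as in 32.9% of all tested genes in either direction, and control replicate 3 was the highest of the 6 libraries. The mean fell from 414 ± 12.7 to 373 ± 4.26 CPM (SD, n = 3 each), a log2 fold change of -0.15 (SE 0.040, edgeR adjusted p = 0.0363). Without D-serine replicate 1 it was -0.15 (edgeR adjusted p = 0.00669). The coefficient of variation was 3.08% in control, above the 1.17% that counting of read pairs gives, and 1.14% against 1.18% with D-serine. The call was lost when any one of the other libraries was left out, with adjusted p-values of 0.0902, 0.123 and 0.135 without control replicates 1, 2 and 3, and 0.0673 and 0.0990 without D-serine replicates 2 and 3. It was also lost under upper quartile scaling (adjusted p = 0.0845) and with library totals (0.0723). The log2 fold change itself stayed between -0.16 and -0.12 over all 16 alternatives. The unadjusted p of Slc1a5 was under 0.05 in each of them. Over all genes edgeR called 1302 with all libraries, and 125, 68 and 453 without control replicates 1, 2 and 3. It called 1566 and 291 without D-serine replicates 2 and 3.

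**Figure D1:**
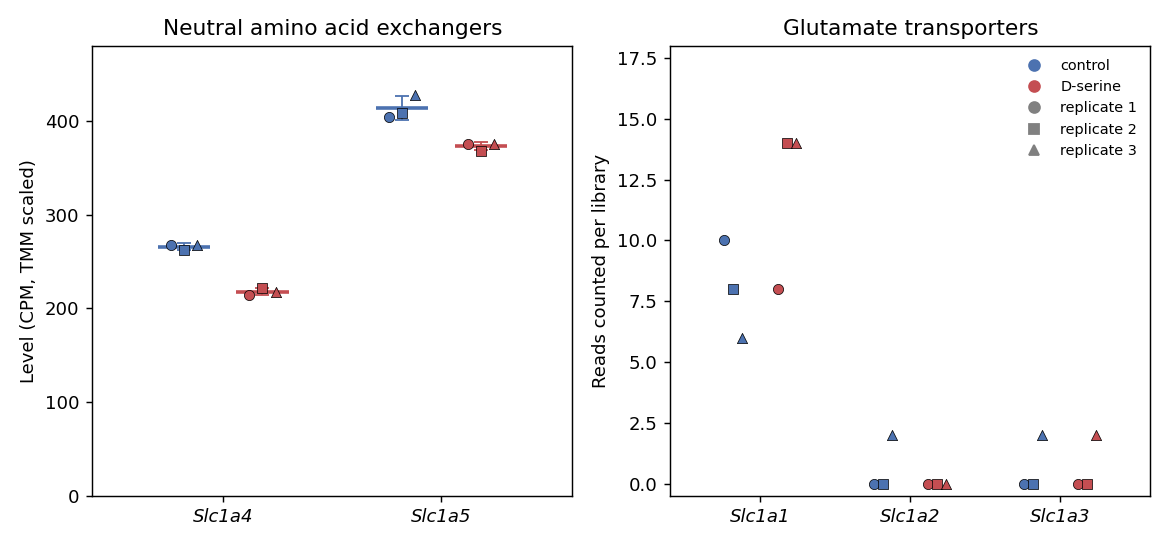
Level of each SLC1 member in the 6 libraries. Left, Slc1a4 and Slc1a5 in CPM, with bars for the mean and SD of 3 libraries; right, reads counted per library for the glutamate transporters. The D-serine libraries lie below the control libraries for both exchangers, and Slc1a2 and Slc1a3 are at 0 or 2 reads.

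The exchangers can be set beside other genes of high expression. Over the 2736 tested genes with a mean of at least 100 CPM the median log2 fold change was -0.045, against 0.0053 over all tested genes. Of these 2736 genes, 339 (12.4%) were called lower and 69 higher. A value lower than that of Slc1a4 was found in 58 of them (2.12%), and a value lower than that of Slc1a5 in 492 (18.0%). In bulk RNA, a smaller share of cells of one kind and less RNA per cell cannot be told apart.

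Every D-serine library held fewer Slc1a4 reads per Slc1a5 read than every control library, a comparison that does not depend on how libraries are scaled. For every 100 Slc1a5 reads there were 66.2, 64.1 and 62.5 Slc1a4 reads in control replicates 1 to 3. There were 57.1, 60.2 and 57.8 in D-serine replicates 1 to 3. The log2 ratio moved by -0.14 (exact two-sided permutation test, p = 0.1, the smallest that 3 libraries against 3 allow, and 0.2 when adjusted over the 3 ratios computed), so this design could not pass 0.05. Without D-serine replicate 1 it moved by -0.12. The ratio is not free of the trend with exonic length, since Slc1a4 is longer than Slc1a5 (3926 against 2758 bases). Over the libraries it fell in the order of their length slopes, from control replicate 1 to D-serine replicate 1. With the length trend removed, the log2 fold changes were -0.27 for Slc1a4 and -0.16 for Slc1a5. The part of this trend in the ratio was not tested. Slc1a4 made up 31.1% ± 0.617 of the summed FPKM of the members in control and 29.1% ± 0.562 with D-serine (SD, n = 3 each).

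**Figure D2:**
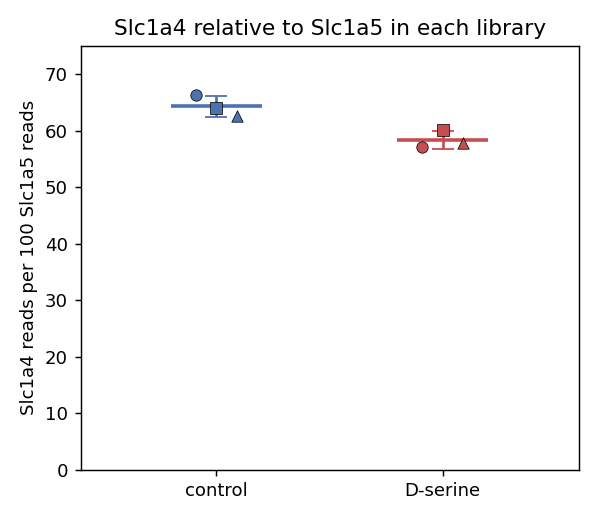
Slc1a4 reads per 100 Slc1a5 reads in each library, with the mean and SD of 3 libraries per group. Control libraries lie between 62.5 and 66.2 and D-serine libraries between 57.1 and 60.2.

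The summed level of the family did not overlap between the groups, as was so, in either direction, for 32.9% of single tested genes. The summed FPKM of the 5 members was 215, 215 and 223 in control and 191, 189.9 and 192 with D-serine. It moved from 218 ± 4.98 to 191 ± 0.903 (SD, n = 3 each), a difference of -12.4% (two-sided exact permutation p = 0.1, again the smallest possible). On the log2 scale this difference was -0.19 with and without D-serine replicate 1. The lower sum follows from Slc1a4 and Slc1a5, since the glutamate transporters add under 0.1% to it.

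Slc1a1, which in the table spans 28909656 to 28988450 on chromosome 19, plus strand, was barely expressed. Control replicates 1 to 3 gave 10, 8 and 6 reads, whereas D-serine replicates 1 to 3 gave 8, 14 and 14. The groups overlapped. The level was 0.229 ± 0.075 CPM for vehicle against 0.311 ± 0.094 CPM for D-serine (SD, n = 3 each), a log2 fold change of 0.45 (SE 0.50, edgeR adjusted p = 0.595). All 6 counts were even, as were 74.3% of the values between 2 and 20 in the table, against 49.8% of values of 200 or more. Even counts arise when both mates of a pair are counted, a setting not given in the sources used here. Taken as 12 pairs in control and 18 with D-serine, the ratio per total count was 1.40, with a 95% exact (Clopper-Pearson) interval of 0.639 to 3.19 that covers counting error only. No difference was detectable at this depth. Relative to Slc1a5 its log2 ratio differed by 0.59 and relative to Slc1a4 by 0.73, with overlap in both (exact two-sided permutation tests, p = 0.2 each, adjusted p = 0.2). Single libraries moved the log2 fold change of Slc1a1 and its ratio to Slc1a5 by over 1.5 times. The log2 fold change of Slc1a1 was 0.68 on leaving out D-serine replicate 1 and 0.71 on leaving out control replicate 1. Leaving out control replicate 3 gave 0.25, and leaving out D-serine replicate 2 gave 0.28. Its edgeR adjusted p lay between 0.511 and 0.827 when 1 library was left out. The ratio to Slc1a5 then ran from 0.34, without control replicate 3, to 0.87, without D-serine replicate 1. The ratio to Slc1a4 ran from 0.50 to 0.997 in the same fits.

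Slc1a2 and Slc1a3, the transporters typical of astrocytes, were not detected in most libraries. Slc1a2 (chromosome 2, 102498840 to 102630941, plus strand) had 2 reads in control replicate 3 and none in the other 5 libraries. Slc1a3 (chromosome 15, 8584124 to 8660807, minus strand) had 2 reads in control replicate 3, 2 in D-serine replicate 3 and none in the other 4. With read pairs as the unit, a count of 0 allows up to 3 pairs, or 6 counts, which is between 0.150 and 0.185 CPM in these libraries and covers counting error only. Both members were below the filter for testing, and no fold change is given. Of the other genes of the family, Slc1a6 (EAAT4) had no read in any library, and Slc1a7 (EAAT5) was detected in all 6. For Slc1a7, control replicates 1 to 3 gave 6, 16 and 19 reads, whereas D-serine replicates 1 to 3 gave 12, 21 and 29, with overlap (log2 fold change 0.48, SE 0.47, edgeR adjusted p = 0.535). The value for Slc1a7 was 0.18 when control replicate 1 was left out, 0.19 when D-serine replicate 3 was, and 0.76 without either control replicate 3 or D-serine replicate 1.

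The exchangers stood among the more abundant neutral amino acid carriers of these cells. Among 28 genes, the 5 members and 23 other carriers of a fixed list, Slc1a5 was 4th and Slc1a4 7th by FPKM in control. Above Slc1a5 were Slc7a5 (602 FPKM) and Slc3a2 (387 FPKM), which form the large neutral amino acid exchanger LAT1, and Slc38a2 (225 FPKM), a sodium-coupled carrier of small neutral amino acids. The lysosomal glutamine carrier Slc38a7 (74.6 FPKM) and the glutamine carrier Slc38a1 (71.7 FPKM) lay just above Slc1a4. The control libraries of each of these genes were apart from those of its neighbour in the order. With D-serine the 3 libraries of Slc1a4 lay between 54.5 and 56.4 FPKM and those of Slc38a1 between 62.8 and 70.9 FPKM. Slc7a10 (Asc-1), a high-affinity D-serine exchanger of neurons, had no read in any library.

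**Figure D3:**
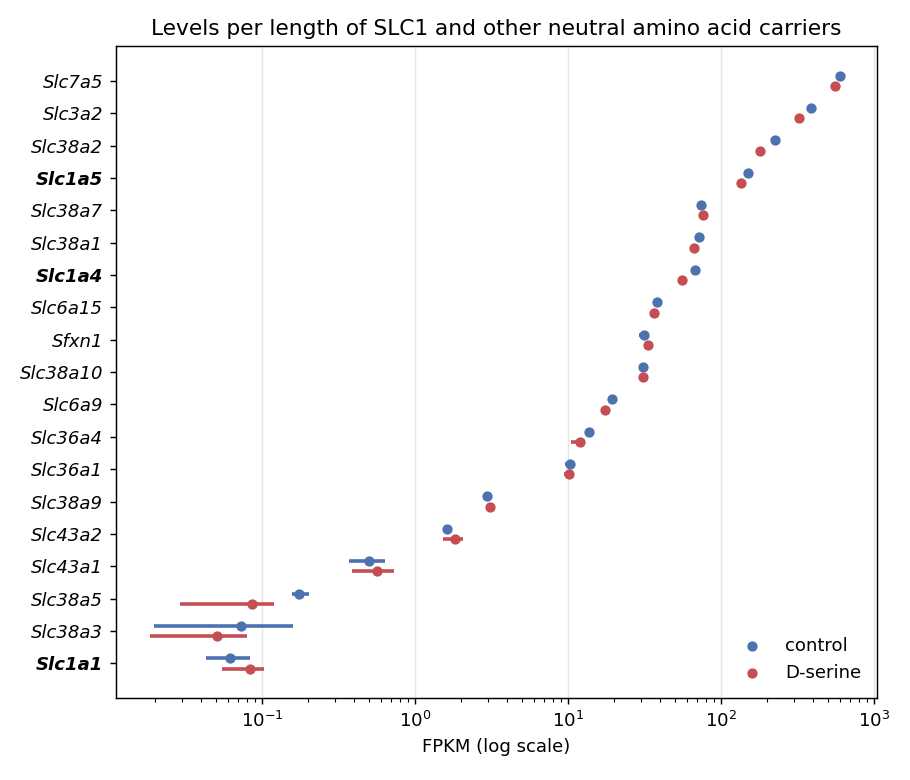
FPKM on a log axis of the SLC1 members (bold) and other neutral amino acid carriers that had reads in all 6 libraries, in descending order in control. Points are means of 3 libraries and lines run from the lowest to the highest library; Slc1a5 and Slc1a4 are 4th and 7th.

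Of the 23 other carriers, 15 were tested and 2 passed the threshold, and both were lower. Over all tested genes 4.9% were called lower, and over those of at least 100 CPM 12.4%. The count of carriers was 4 lower and 1 higher without D-serine replicate 1, 1 lower without control replicate 2, and 4 lower with the length trend removed. The median log2 fold change of the 15 was -0.067, against 0.020 with the length trend removed and -0.039 without D-serine replicate 1. Slc38a2 fell from 1043 ± 11.98 to 830 ± 27.3 CPM (SD, n = 3 each), with a log2 fold change of -0.33 (SE 0.039, edgeR adjusted p = 0.00145). It was past the threshold in all 16 alternatives, as Slc1a4 was. Slc3a2 was also lower, with a log2 fold change of -0.25 (SE 0.040, edgeR adjusted p = 0.0060), a call lost without control replicate 2 (adjusted p = 0.0501). Slc7a5, the partner of Slc3a2, had -0.12 (SE 0.037, edgeR adjusted p = 0.0619). Slc38a1 had -0.097 (SE 0.046, edgeR adjusted p = 0.187), moved to -0.052 without D-serine replicate 1, and its sign turned to 0.020 with the length trend removed. Srr, which makes D-serine from L-serine, had 4.33 CPM for vehicle against 4.77 CPM for D-serine (log2 fold change 0.14, SE 0.14, edgeR adjusted p = 0.534). Its log2 fold change was 0.24 without control replicate 1 and 0.092 without control replicate 2.

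Genes that make and use the glutamate and glutamine carried by the family had mostly small log2 fold changes. Of 18 such genes 13 were tested and 4 passed the threshold, all lower. Called lower were 4.9% of all tested genes and 12.4% of those of at least 100 CPM. The median log2 fold change of the 13 was -0.092. The calls included Slc7a11 (-0.32, edgeR adjusted p = 0.0162), the mitochondrial aspartate-glutamate carrier Slc25a12 (-0.18, 0.0244) and the mitochondrial alanine aminotransferase Gpt2 (-0.18, 0.0262). Slc7a11 moved to -0.23 without D-serine replicate 1 and to -0.20 with the length trend removed. The edgeR count was 0 without control replicate 1 and 0 without control replicate 2, where 5 genes each had an unadjusted p under 0.05, and 1 without control replicate 3 or D-serine replicate 3. DESeq2 and limma-voom on all 6 libraries gave 4 each. Glul, glutamine synthetase, had 153 CPM for vehicle against 155 CPM for D-serine (log2 fold change 0.022, SE 0.044, edgeR adjusted p = 0.786). Transcripts of the vesicular glutamate transporters were nearly absent. Slc17a6 was at 0 in every library, and Slc17a7 and Slc17a8 averaged below 1 CPM in both groups.

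**Figure D4:**
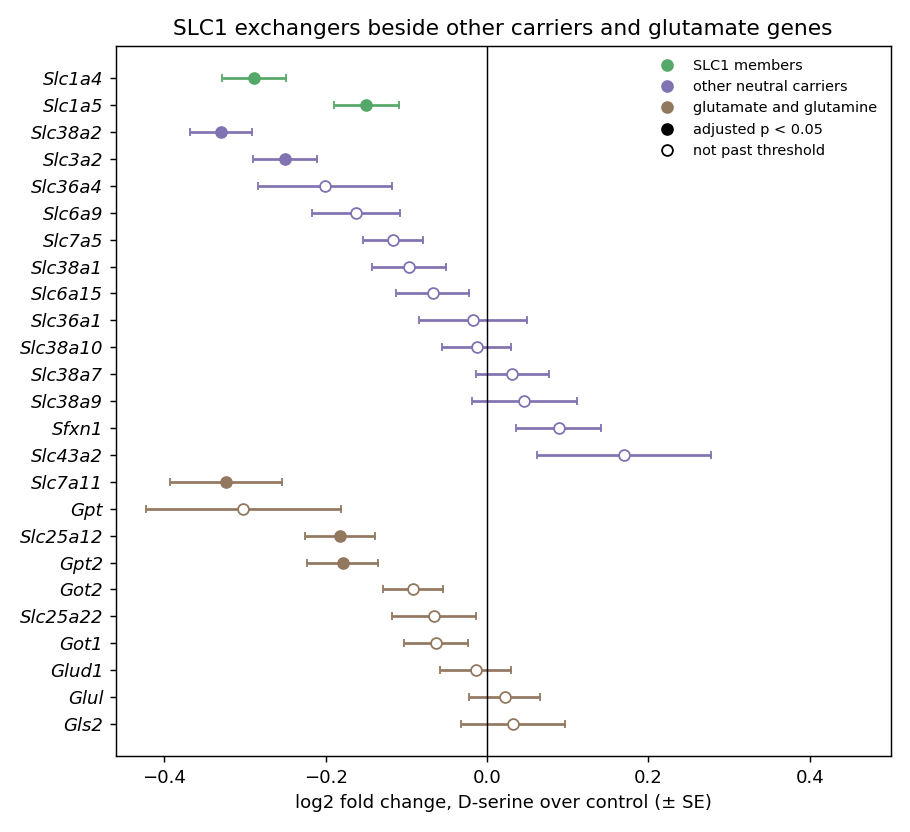
Log2 fold change of D-serine over control with its SE for tested genes of at least 5 CPM that are reported here, in the SLC1 family, the other neutral carriers and the glutamate and glutamine genes. Filled points have an edgeR adjusted p under 0.05; they comprise Slc1a4 (-0.29), Slc1a5 (-0.15), 2 other carriers and 3 glutamate and glutamine genes, all to the left of 0.

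Genes known to bind the carriers or set their number at the surface mostly did not pass the test. Of 14 listed symbols 13 were in the table and 11 were tested, with 2 lower and 1 higher, at a median log2 fold change of -0.070, where 9.74% of all tested genes were called in either direction. Without control replicate 2 edgeR called none of the 11 (4 at an unadjusted p under 0.05), and without control replicate 1 or 3 it called 1, lower. Slc9a3r1, a PDZ scaffold, was lower (-0.24, edgeR adjusted p = 0.0210) and Pick1, another PDZ protein, was higher (0.22, edgeR adjusted p = 0.0469). The remaining call was Slc3a2, described above. Slc9a3r1 lost its call in 4 of the 16 alternatives, with adjusted p-values from 0.0544 to 0.0860. Pick1 lost its call in 8 of the 16 alternatives, 5 of which left out 1 library. Arl6ip5, an inhibitor of Slc1a1 activity, had 94.3 and 95.2 CPM (log2 fold change 0.013, edgeR adjusted p = 0.910).

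Slc1a4 fell together with part of the ATF4 and amino acid response list. Of its 45 genes, 44 were tested, 16 were lower past the edgeR threshold and 0 higher, where 4 were higher at an unadjusted p under 0.05 and DESeq2 called 1 higher. Over all tested genes 4.9% were lower, and over those of at least 100 CPM 12.4%. Its median log2 fold change was -0.11. The list contains neither Slc1a4 nor Slc1a5. The 5 with the smallest p were Slc38a2, Slc3a2, Slc7a1 (-0.30, edgeR adjusted p = 0.0127), Cars (-0.27, 0.00588) and Gdf15 (-0.29, 0.0149). Slc7a1 moved to -0.22 without D-serine replicate 1 and to -0.21 with the length trend removed. It lost its call without control replicate 1 or 2 (edgeR adjusted p = 0.0557 and 0.0654). Cars kept its call in all 16 alternatives and Gdf15 in 12. Slc7a1 carries cationic amino acids, Cars is cysteinyl-tRNA synthetase and Gdf15 is a secreted stress factor. Without 1 library the number lower ran from 2, without control replicate 2, to 24, without D-serine replicate 1. It was 4 without control replicate 1, and 5 each without control replicate 3 and D-serine replicate 3. Both upper quartile scaling and library totals gave 10 lower and 1 higher, the length trend removed 27 lower and 2 higher, and the replicate block 5 lower. Asns, asparagine synthetase, which holds the motif in its promoter, had -0.081 (edgeR adjusted p = 0.205).

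Among the marker lists, 1 of 2 tested astrocyte markers and 1 of 14 tested neuronal markers passed the threshold. Over all tested genes 9.74% did, in either direction. The summed level of the 8 astrocyte markers was 39.8 to 43.4 CPM in the control libraries but 33.8 to 35.5 CPM in the D-serine libraries. It came mostly from Fgfr3, at 37.5 CPM for vehicle against 31.0 CPM for D-serine (log2 fold change -0.28, edgeR adjusted p = 0.0166), while Aqp4 and Gja1 were at 0. Of the 17 sympathoadrenal and neuronal markers 14 were tested and Tubb3 alone passed, higher with D-serine (0.25, edgeR adjusted p = 0.0148). Their sum ran from 1730 to 1829 CPM for vehicle against 1864 to 1998 CPM for D-serine. The part of these shifts in the lower exchanger levels was not tested.

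Each exchanger was compared with 9798 other tested genes of at least 5 CPM. Genes with clone or accession names, Gm or LOC numbers, or symbols starting with a digit were left out. Among the compared genes, those whose log2 CPM followed Slc1a4 most closely over the 6 libraries were Sart3, Irf2, Ptcd1, Tox2 and Hk1. Their Pearson correlations lay between 0.996 and 0.998, a description over 6 libraries that includes the difference between the groups. Sart3 is a splicing recycling factor and Hk1 a hexokinase. Hk1 had 262, 258 and 259 CPM in the control libraries against 231, 238 and 235 CPM in those given D-serine. As in Slc1a4, control replicate 2 was the lowest control library and D-serine replicate 1 the lowest of all.

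The compared genes most like Slc1a5 were Clptm1, Vars, Gpt2, Adam15 and Nomo1, with correlations between 0.991 and 0.994. Vars is valyl-tRNA synthetase. Vars had 411, 409 and 430 CPM in the control libraries against 378, 374 and 383 CPM in those given D-serine. Like Slc1a5, these values were highest in control replicate 3 and lowest in D-serine replicate 2.

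**Figure D5:**
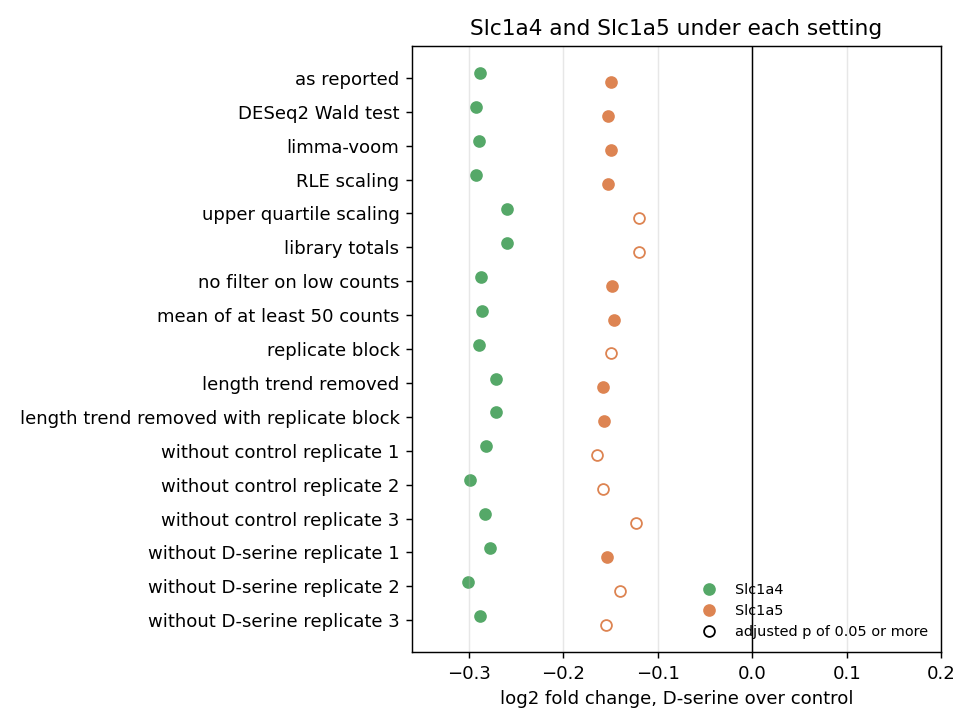
Log2 fold change of Slc1a4 and Slc1a5 as reported and under each of the 16 alternatives. Open points have an adjusted p of 0.05 or more; Slc1a4 is filled throughout and Slc1a5 is open in 8 of the 16.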

How the data were processed

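Values are raw counts for each gene, deposited as a single featureCounts table with exonic lengths, per the file headers. The submitters' processing notes name bcl2fastq, Trim Galore, HISAT2, featureCounts and DESeq2, and the builds GRCm38 and mm10. Strand and mate settings are not given in the sources used here. Columns named for vehicle were taken as the control samples of the same number.

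Genes kept by filterByExpr were tested with edgeR 4.0.16 in R 4.3.3 (TMM, quasi-likelihood F test, no covariate, two-sided, Benjamini-Hochberg over 13366 genes, threshold 0.05); the SE is the log2 fold change over the root of F. FPKM was computed from TMM-scaled CPM. Exon overlaps were found with bedtools 2.31.1. Fits were tested on simulated data. Alternatives were DESeq2 1.42.0, limma-voom 3.58.1, other scalings and filters, removal of each library's length trend (spline, 5 degrees of freedom), the replicate block and leaving out each library.

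Members, lists and tests were chosen with earlier results of these data known. Named genes were all members, up to 5 called genes of smallest p per list and genes of known function (Slc7a10, Srr, Slc38a1, Slc38a2, Glul, Atf4). Also named were the 5 compared genes most correlated with Slc1a4 and with Slc1a5. Others (Slc7a5, Slc38a7, Iars, Yars, Tars, Asns, Arl6ip5, Hand2, Stmn2, Slc17a6, Slc17a7, Slc17a8 and other markers) were named after their values were seen. Some list genes are counted but not reported by name here. Leukocyte, fibroblast, and Schwann and oligodendrocyte marker lists summed to at most 2.82, 6.90 and 16.7 CPM in a library.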

Additional observations from a re-analysis of the deposited data

How the results depend on the processing

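Slc1a4 kept its call in all 16 alternatives and Slc1a5 in 8. Slc1a5 lost it under upper quartile scaling (-0.12), library totals (-0.12) and the replicate block (-0.15), and its value ran from -0.16 to -0.12 when 1 library was left out. The number of genes past the threshold was 298 with the replicate block, 2043 with the length trend removed, 1900 with both, and 68 to 1699 when 1 library was left out, lowest without control replicate 2. Same-numbered libraries did not deviate together (correlations -0.069, 0.020 and -0.019), where those of unlike number ran from -0.076 to 0.088. These values showed no pairing but cannot settle it, and the labels do not say whether the numbers mark shared cultures or days. In the replicate block the log2 ratios moved by -0.14 (Slc1a4 to Slc1a5), 0.59 and 0.73, as without it. The difference in summed level was -0.19 (log2) with the block, an alternative chosen after seeing the data. Signs turned for Glul without D-serine replicate 1 (-0.0043, range to 0.044 over the 6 fits that left out 1 library) and for Slc38a1 with the length trend removed (0.020, also with the block). The cause of these changes was not tested. Depth limits Slc1a1, Slc1a2 and Slc1a3 to statements of detection.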

Other observations

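The transcript of Atf4 itself did not go the way of the ATF4 and amino acid response list. It had 1041 CPM for vehicle against 1168 CPM for D-serine (log2 fold change 0.17, SE 0.050, edgeR adjusted p = 0.0527). The groups did not overlap, as in 32.9% of all tested genes in either direction. Without D-serine replicate 1, the highest library at 1272 CPM, the log2 fold change was 0.10 (edgeR adjusted p = 0.0329). It passed the threshold, higher, in 8 of 16 alternatives, with adjusted p-values from 0.00932 to 0.189. Ddit3, an ATF4 partner gene named after its values were seen, was at 257 and 277 CPM (log2 fold change 0.11, edgeR adjusted p = 0.128).

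Counts of 2 were more frequent in the table than counts of 1, with 4517 values against 1537. Of the values 2 and 3, 83.3% were even.

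In the deposited table Slc1a4 and Slc1a3 spanned 30534 and 76684 bases, the same as in RefSeq GRCm38.p6, but started 99997 and 50000 bases earlier.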
